A study of Homo sapiens with 6 samples.

Results

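Transcripts of 10 genes of the Notch pathway were followed in T47D cells that overexpress prolactin: the receptors NOTCH1, NOTCH2 and NOTCH3, the ligands JAG1, JAG2 and DLL1, and the target genes HES1, HES4, HEY1 and HEY2. They were taken by gene symbol from a deposited table of 17891 genes. All 10 were found, each in 1 row, and all passed the filter on low counts. T47D cells are a long-established luminal breast cancer line with estrogen and progesterone receptors. PRL cells (3 libraries) carried a lentivirus of a PLVX-puro system with PRL, which encodes prolactin. Control cells (3 libraries) carried the control lentivirus of that system. Both were grown in RPMI1640 with FBS before RNA was taken. The series text speaks of biological replicates. It does not say whether each came from its own transduction or from a pool or a clone, so the p-values measure the spread between these libraries, which may be narrower than that between independently made lines.

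Notch signalling passes between touching cells. A DLL or JAG ligand on one cell pulls on a NOTCH receptor on the next, proteases of the ADAM family and then the gamma-secretase complex cut the receptor, and the freed intracellular part enters the nucleus. There it joins the DNA-binding protein RBPJ and a MAML coactivator and turns on target genes, of which the HES and HEY transcriptional repressors are the best known. In the breast epithelium the pathway is known for its part in luminal cell fate, and in breast cancer for its links to growth and stem-like cells.

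The start regions of 3 of the target genes are shown because they hold the letters that RBPJ is known to bind and because these genes moved differently. They are RefSeq sequences on GRCh38.p14, written 5′ to 3′ along the gene. Capitals mark GTGGGAA, the RBPJ site, and GTGTGAA, a variant known from the paired site of HES1, on either strand (TTCCCAC and TTCACAC on the other strand). The HES1 and HES4 stretches are the last 100 bases before the RefSeq start (chr3:194136048-194136147, plus strand, and chr1:1000098-1000197, minus strand). The HEY2 stretches, on the plus strand, begin 240 and 60 bases before its RefSeq start (chr6:125749392-125749451 and chr6:125749572-125749634). The gene spans given below are from GENCODE 29, which starts HES4 (1000172) and HEY2 (125747664) further upstream. The HES4 stretch lies partly inside that span, and the HEY2 stretches lie wholly inside theirs.
HES1: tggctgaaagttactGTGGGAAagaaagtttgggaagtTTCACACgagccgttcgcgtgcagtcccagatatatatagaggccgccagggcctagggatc
HES4: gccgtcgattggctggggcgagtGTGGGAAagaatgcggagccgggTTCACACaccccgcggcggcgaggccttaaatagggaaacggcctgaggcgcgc
HEY2, upstream stretch: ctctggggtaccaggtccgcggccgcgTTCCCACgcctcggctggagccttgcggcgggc
HEY2, stretch at the start: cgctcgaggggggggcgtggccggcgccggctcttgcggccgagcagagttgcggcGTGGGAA

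HES1 and HES4 each held 1 GTGGGAA followed, 16 bases further on, by 1 TTCACAC. Such a pair, with up to 30 bases between the 2 sites, stood in 7 of 35116 RefSeq windows of 300 bases (250 before the start and 50 from it on), or 0.02%. HEY2 held GTGGGAA letters at 2 places and no GTGTGAA. On either strand, GTGGGAA was found in 6.25% of all windows and GTGTGAA in 3% of them. The windows of NOTCH1, NOTCH2, NOTCH3, JAG1 and JAG2 held neither. The letters TTCNNNGAA, bound by STAT proteins, were found on either strand in 1 of the 8 members' windows, that of NOTCH3, and in 7.66% of all windows. A match is a description of letters, and the variant and the pair were searched for after these sequences had been seen.

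Libraries held 16211146 to 17402348 estimated gene counts. PRL itself, at 450 ± 7.63 CPM in the PRL group and 0.152 ± 0.0781 CPM in controls (SD, n = 3 each), followed the labels. CPM here are counts divided by library sizes that had been adjusted with edgeR's TMM factors, in units of 1e6 counts. The control libraries varied more among themselves (chi-square per gene 13.4 to 25.7 for pairs) than the PRL libraries did (1.68 to 2.22). Ribosomal protein genes took 9.58% to 10.1% of counts in the PRL group and 14.6% to 17.5% in controls, and the log2 fold change of the median gene was 0.26 when plain library totals were used, against 0.01 with TMM. Fold changes below are relative to the TMM scale. Luminal markers were abundant in both groups, at a sum of 17300 to 17500 TPM (transcript shares scaled by length to a fixed sum) in the PRL group and 17600 to 19300 TPM in controls over 8 genes. The 5 basal or myoepithelial markers summed to 11.9 to 13.4 TPM in the PRL group and 15.3 to 18.6 TPM in controls. Most of that was ACTA2, at a mean of 12 TPM over all libraries, while KRT5 had no more than 3 counts in each library. ACTA2 was lower in the PRL group (log2 fold change -1.01, edgeR adjusted p = 2.4e-05), and 1 other of the 3 tested was higher. The 3 endothelial markers in the table summed to at most 0.3 TPM in the PRL group and 0.34 TPM in controls, and CDH5 had at most 3 counts in each library. The 5 fibroblast markers summed to 23.7 to 24.7 TPM in the PRL group and 11.4 to 16 TPM in controls, nearly all of it COL1A1, while COL3A1, LUM and DCN had at most 3 counts in each library. The 5 immune markers summed to 7.91 to 8.78 TPM in the PRL group and 3.47 to 5.47 TPM in controls, and their part in the results was not tested.

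Of the 10 Notch genes, 7 were higher and 1 lower in the PRL group at an adjusted p under 0.05 (edgeR's quasi-likelihood test, Benjamini-Hochberg over 14076 genes). Changes were common throughout: 62.9% of all genes tested were called, 32.4% higher and 30.5% lower. The 5 largest rises were those of HEY2, DLL1, JAG1, HEY1 and NOTCH1, each of at least 2-fold, where 10.6% of all genes tested were called and at least 2-fold higher. These 5 were called higher in every fit, main or alternative, that tested them. NOTCH2 and NOTCH3 did not pass the test. HES1 and JAG2 rose by less than 1.5-fold on the TMM scale, where their calls depended on single libraries, and by more with library totals and on TPM. HES4 fell, but its call was lost with library totals and on FPKM or TPM. The log2 fold change of the median gene was itself 0.26 with library totals, 0.2 on FPKM and 0.39 on TPM (pseudocount of 1). The median log2 fold change of the 10 genes was 0.74, against 0.01 for all genes tested. The members were chosen with earlier results of these data known, so their counts and median only describe them. For 8 of the 10 the CPM of the groups did not overlap, as for 69.5% of all genes tested; 7 of these lay higher in the PRL group, as did 35.9% of all genes tested. RNA came from whole cultures, so more transcript in each cell and more cells with the transcript cannot be told apart.

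**Figure D1:**
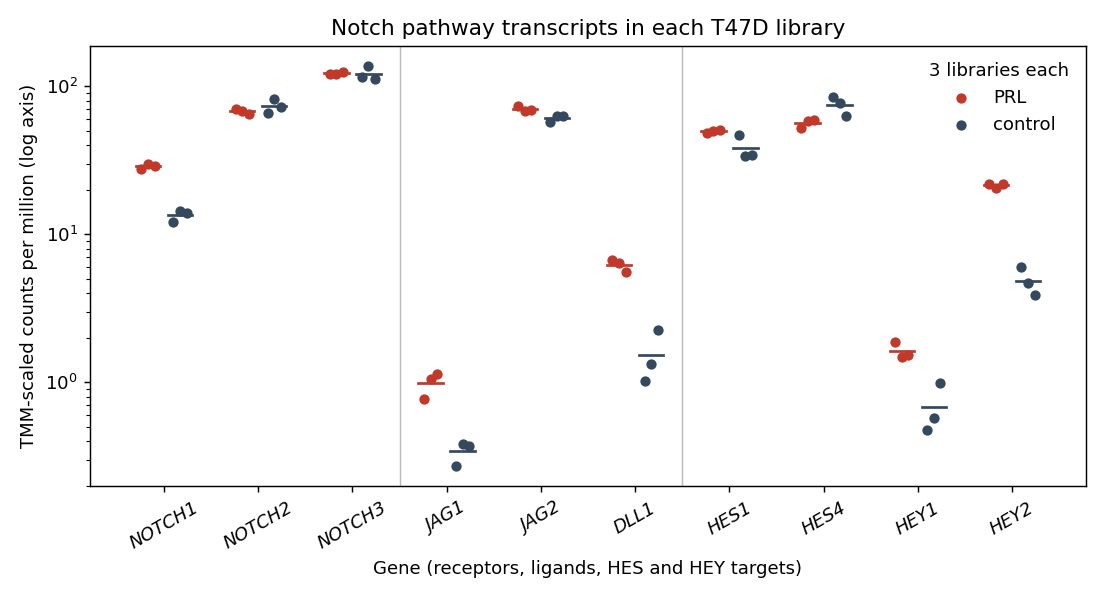
Each point is 1 library, in TMM-scaled CPM on a log axis, and each line is a group mean. The PRL libraries lie above the controls for NOTCH1, DLL1, JAG1, HEY1 and HEY2, and overlap them for NOTCH2 and NOTCH3.

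Among the receptors, only NOTCH1 passed the test. NOTCH1 (GRCh38 chromosome 9, 136494433 to 136545786, minus strand), the receptor best known from T cell leukaemia, had 27.7, 29.9 and 29 CPM in the PRL libraries and 12.1, 14.3 and 13.9 CPM in the controls. Every PRL library was above every control, with little spread in either group. Its log2 fold change was 1.1 (SE 0.10), a 2.15-fold rise, with an edgeR adjusted p of 6.5e-06. It ranged from 1.04 to 1.15 when each library was left out in turn.

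NOTCH3, a receptor known in breast for luminal progenitors, was the most abundant of the 3 and differed least. It lies on chromosome 19 from 15159038 to 15200981. NOTCH3 had 121, 121 and 124 CPM in the PRL libraries and 115, 137 and 111 CPM in the controls. The PRL values lay inside the range of the controls. Its log2 fold change was 0.01 (SE 0.09, edgeR adjusted p = 0.938), and it was called higher with library totals (0.26, adjusted p = 0.0467) and by limma on log2(TPM + 1) (0.45, adjusted p = 0.00875). There the median of all genes tested was at 0.26 and 0.39, so NOTCH3 stood at or near the median gene.

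NOTCH2 (chromosome 1, 119911553 to 120069626) had 70.5, 67.8 and 64.5 CPM in the PRL libraries and 65.7, 81.8 and 72.9 CPM in the controls. The groups overlapped, and the log2 fold change was -0.12 (SE 0.09, edgeR adjusted p = 0.265). NOTCH2 has near-identical partial copies, the NOTCH2NL genes, and its deposited counts were not whole numbers. NOTCH2NLA, NOTCH2NLB and NOTCH2NLC together held 44.4% to 45.4% of the counts of the 4 genes in the PRL libraries and 41.7% to 49.8% in the controls, so the level of NOTCH2 alone is uncertain. With the counts of all 4 added together, an alternative chosen after seeing the data, the log2 fold change was -0.12 as well (SE 0.07, edgeR adjusted p = 0.193). NOTCH4, the remaining receptor, was too low to be tested, at 0.276 ± 0.334 CPM in the PRL group and 0.406 ± 0.122 CPM in controls (SD, n = 3 each).

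The share of each receptor in their summed TPM, which does not depend on how libraries are scaled, moved toward NOTCH1. NOTCH1 made up 13%, 13.8% and 13.5% of it in the PRL libraries and 5.84%, 5.74% and 6.87% in the controls. NOTCH3 made up 62.5% ± 0.92 in the PRL group and 66.0% ± 1.86 in controls, and NOTCH2 24.1% ± 1.09 and 27.8% ± 1.28 in the same order (SD, n = 3 each). NOTCH3 remained the main receptor transcript in every library. Groups did not overlap for any of the 3 shares, and the exact two-sided permutation p was 0.1, the smallest that 3 libraries against 3 can give. Per length, NOTCH1 stood at 0.558 of NOTCH2 in the PRL group and at 0.221 of it in controls, a difference of 1.34 in the log2 ratio within libraries (exact permutation p = 0.1, adjusted p = 0.125 over 5 pairs of genes). The ratio of NOTCH3 to NOTCH2 was 2.60 in the PRL group and 2.38 in controls, with overlapping libraries (exact permutation p = 0.2).

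All 3 ligands that could be tested were called higher, by very different amounts, where 32.4% of all genes tested were called higher. DLL1 (chromosome 6, 170282206 to 170306565), a Delta-type ligand, rose most among them. It had 6.70, 6.39 and 5.59 CPM in the PRL libraries and 1.02, 1.34 and 2.25 CPM in the controls. The groups were far apart, although control replicate 3 stood above the other controls. The log2 fold change was 2.01 (SE 0.24), a 4.02-fold rise, with an edgeR adjusted p of 5.7e-05, and it was 2.41 without control replicate 3.

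JAG1 (chromosome 20, 10637684 to 10673999), the Jagged ligand most often linked to basal-like breast cancer, was scarce. It had 14, 19 and 20 counts in the PRL libraries and 4, 6 and 6 counts in the controls, near the 3 counts that an absent gene would still allow. In TMM-scaled CPM these were 0.775, 1.05 and 1.14 in the PRL libraries and 0.271, 0.383 and 0.374 in the controls. All PRL libraries lay above all controls. The rise was 1.5 on the log2 scale (SE 0.36, 2.83-fold, edgeR adjusted p = 0.00419), the least precise of the 10.

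JAG2 (chromosome 14, 105140981 to 105168824) was the main ligand transcript. It had 73.1, 67.6 and 68.6 CPM in the PRL libraries and 57.7, 62.9 and 63.1 CPM in the controls. The groups did not overlap, but they lay close together. On the log2 scale the difference was 0.19 (SE 0.07, 1.14-fold), with an edgeR adjusted p of 0.0481. The call ended when any 1 library other than control replicate 3 was left out (adjusted p 0.0522 to 0.207), with the replicate number as a block (0.112) and in DESeq2 (0.12). In edgeR it also ended with DESeq2's size factors (adjusted p = 0.0646), without ribosomal protein genes (0.0521) and without a filter on low counts (0.0859). With library totals the log2 fold change of JAG2 was 0.44 (edgeR adjusted p = 0.00267), and by limma on log2(TPM + 1) it was 0.59 (adjusted p = 0.00182). The median gene was at 0.26 and 0.39 in that order. Another annotated gene on the same strand shares 7.33% of the exon bases of JAG2.

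The ligands summed to 25.5 ± 1.64 TPM in the PRL group and 15.1 ± 2.42 TPM in controls (SD, n = 3 each). DLL1 held 12.2%, 12.4% and 10.9% of that sum in the PRL libraries and 2.60%, 3.08% and 5.08% in the controls. JAG2 held 87.0% ± 0.69 in the PRL group and 95.9% ± 1.36 in controls. The groups did not overlap for either share (exact two-sided permutation p = 0.1, the smallest possible). JAG1 stayed at 0.0134 of JAG2 in the PRL group and 0.00516 of it in controls, a difference of 1.38 in the log2 ratio (exact permutation p = 0.1, adjusted p = 0.125). DLL4, a ligand known from blood vessels, and DLL3, an inhibitory ligand, were below the filter: DLL4 averaged 0.502 ± 0.0489 CPM in the PRL group and 0.149 ± 0.0702 CPM in controls (SD, n = 3 each), and DLL3 had 0.0558 ± 0.00108 and 0.0208 ± 0.036 CPM in that order.

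**Figure D2:**
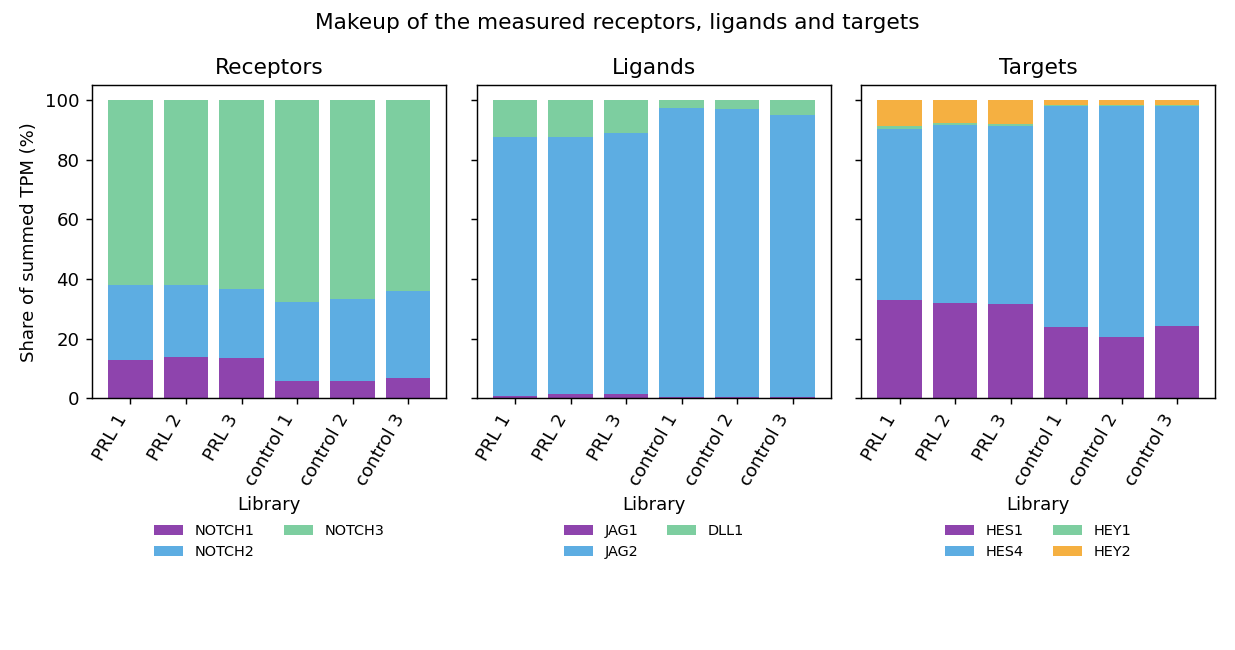
Bars show, for each library, the percentage of the summed TPM of the receptors, ligands or targets that each gene held. NOTCH1, DLL1, HES1 and HEY2 held larger shares in the PRL libraries, and NOTCH3, JAG2 and HES4 were the largest share of their group in every library.

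The HES and HEY repressors went in both directions. HEY2 (chromosome 6, 125747664 to 125761269), known for its role in the heart and vessels, had the largest rise of the 10 genes. It had 21.9, 20.6 and 21.9 CPM in the PRL libraries and 6.03, 4.66 and 3.87 CPM in the controls. The lowest PRL library was more than 3 times as high as the highest control. The log2 fold change was 2.15 (SE 0.14), a 4.44-fold rise, with an edgeR adjusted p of 1.1e-06, and it lay between 2.03 and 2.34 with each library left out.

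HEY1, the related repressor, was lower in level but also rose. It had 34, 27 and 27 counts in the PRL libraries and 7, 9 and 16 counts in the controls, or 1.88, 1.49 and 1.54 CPM against 0.474, 0.574 and 0.998 CPM. Control replicate 3 was again the highest control, as for DLL1, and still lay under every PRL library. The log2 fold change was 1.24 (SE 0.32, 2.37-fold, edgeR adjusted p = 0.00623), and it was 1.64 without that library.

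HES1 (chromosome 3, 194136145 to 194138732), the classical Notch target, rose slightly. It had 48.2, 49.9 and 50.4 CPM in the PRL libraries and 46.7, 33.9 and 34.1 CPM in the controls. Control replicate 1 came close to the PRL libraries, and the other controls lay well below. The rise was 0.37 on the log2 scale (SE 0.12, 1.30-fold, edgeR adjusted p = 0.0175). The call ended without control replicate 2 (log2 fold change 0.29, adjusted p = 0.083), without PRL replicate 2 (0.37, adjusted p = 0.0525) and without PRL replicate 3 (0.36, adjusted p = 0.0553). The log2 fold change of HES1 was 0.64 with library totals (edgeR adjusted p = 0.000312) and 0.82 by limma on log2(TPM + 1) (adjusted p = 1.91e-05). The median gene was at 0.26 and 0.39 under these settings.

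HES4 (chromosome 1, 998962 to 1000172), a HES gene that mice lack, was the one member called lower. It had 52.4, 58.1 and 58.7 CPM in the PRL libraries and 84.4, 76.5 and 62.6 CPM in the controls. The groups did not overlap, with control replicate 3 nearest to the PRL libraries. The log2 fold change was -0.40 (SE 0.11, 0.757-fold, edgeR adjusted p = 0.00766). With library totals it was -0.14 (adjusted p = 0.229), and on TPM the gene averaged 107 ± 4.84 in the PRL group and 107 ± 10.6 in controls (SD, n = 3 each), with a limma log2 difference of 0.01 (adjusted p = 0.951). HES4 still lay below the median gene, which was at 0.26 with library totals and 0.39 on log2(TPM + 1).

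The ratio of HES4 to HES1, whose start regions share the paired letters shown above, is free of that scaling. Its log2 value was 0.80, 0.90 and 0.92 in the PRL libraries and 1.63, 1.91 and 1.60 in the controls. Thus HES4 stood at 1.83 times HES1 in the PRL group and at 3.27 times HES1 in controls. The groups did not overlap (difference -0.84, exact two-sided permutation p = 0.1, adjusted p = 0.125). The log2 ratio of HEY1 to HES1 differed by 0.84 (exact permutation p = 0.1, adjusted p = 0.125), and by 0.50 to 1.17 with each library left out. Its groups nearly met, at -5.59 in PRL replicate 3 and -5.65 in control replicate 3, with an SD of 0.67 among controls. HEY2 held 8.19% ± 0.616 of the summed TPM of the 4 targets in the PRL group and 1.71% ± 0.124 in controls. HES4 held 58.9% ± 1.35 in the PRL group and 75.0% ± 2.09 in controls (SD, n = 3 each).

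**Figure D3:**
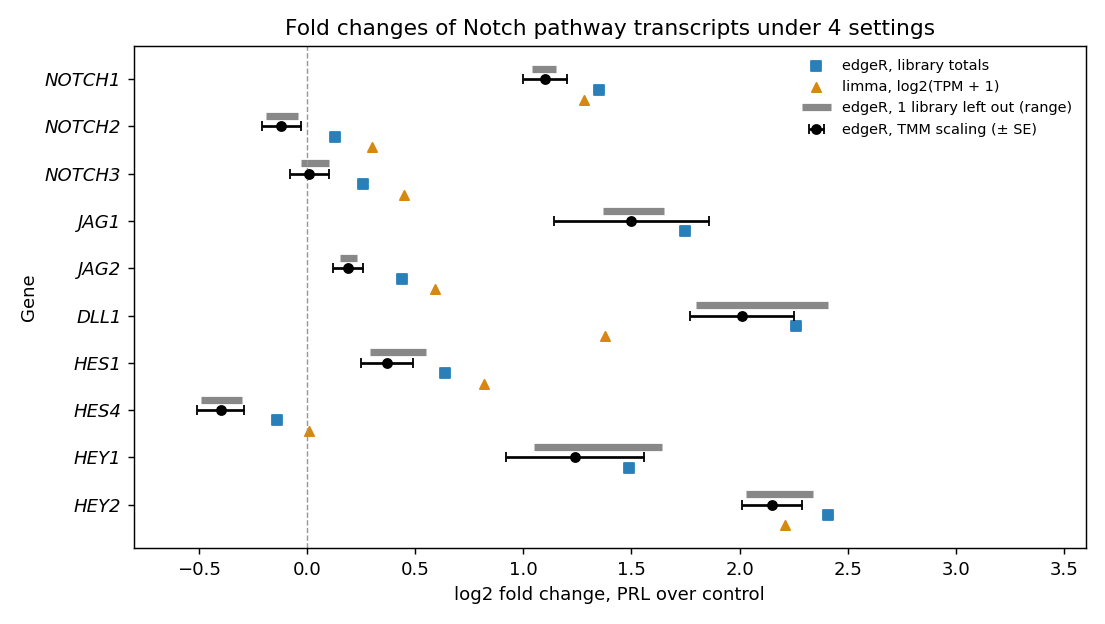
Black points are edgeR log2 fold changes (PRL over control) with TMM scaling and their SE. Grey bars span the fits with 1 library left out, and squares and triangles show library totals and limma on log2(TPM + 1). HES4 lies at -0.40, -0.14 and 0.01 under these 3 settings, while HEY2 stays above 2.

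Levels between genes are compared per length, in TPM. In the PRL group the order was HES4 (107 TPM), HES1 (58.6), NOTCH3 (27.9), JAG2 (22.2), HEY2 (14.9), NOTCH2 (10.7), NOTCH1 (5.99), DLL1 (3.02), HEY1 (1.34) and JAG1 (0.300), and no neighbours overlapped. Controls kept this order, apart from NOTCH2 (8.61 TPM) standing above HEY2 (2.45 TPM). There HEY2 overlapped NOTCH1 (1.90 TPM), and DLL1 (0.557 TPM) overlapped HEY1 (0.437 TPM).

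The wider pathway was read from a list of 70 genes in 10 roles, of which 63 could be tested. Outside the 10 members, 26 of 53 tested genes were called higher and 13 lower, or 73.6% in all, against 62.9% of all genes tested. Their median log2 fold change was 0.21. This list, too, was chosen with earlier results of these data known. For the enzymes that cut the receptor, 6 of 9 genes rose and 2 fell, where 32.4% of all genes tested were called higher and 30.5% lower. NCSTN, a gamma-secretase subunit gene, rose to 184 ± 3.26 CPM in the PRL group, against 109 ± 13.6 CPM in controls (SD, n = 3 each, edgeR adjusted p = 6.8e-05). ADAM17 and ADAM10, the surface proteases, rose as well, with log2 fold changes of 1.38 and 0.44. The subunit genes PSENEN (-0.63) and PSEN2 (-0.51) fell. In ligand ubiquitination, which starts the pull on the receptor, 2 of 4 tested genes rose, where 32.4% of all genes tested were called higher. They were MIB1 (log2 fold change 0.82) and NEURL1 (2.31), with edgeR adjusted p of 1.2e-04 and 4.3e-04, and the other 2 did not pass. NEURL1 was scarce, at 35, 39 and 31 counts in the PRL libraries and 8, 8 and 2 in the controls. It was under the filters of FPKM and TPM and was not tested there. Among the genes that put sugars on the receptor, POGLUT1 (-0.49) and LFNG (-0.41) fell and POFUT1 (0.23) rose, with edgeR adjusted p of 0.00159, 0.00461 and 0.0306. The falls of POGLUT1, LFNG and PSEN2 were not called with library totals (log2 fold changes -0.24, -0.15 and -0.25, adjusted p 0.12, 0.281 and 0.0547). On log2(TPM + 1), limma called none of these 3 falls nor that of PSENEN (-0.04, -0.02, -0.1 and -0.17, adjusted p 0.81, 0.913, 0.461 and 0.108).

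Inside the nucleus the genes were divided. RBPJ, which brings the receptor to DNA, fell to 31.4 ± 1.55 CPM in the PRL group, against 55.9 ± 10.1 CPM in controls (SD, n = 3 each, log2 fold change -0.83, SE 0.12, edgeR adjusted p = 1.8e-04). Its coactivator gene MAML1 rose (0.63, edgeR adjusted p = 2.9e-04), as did EP300 (0.65), KAT2B (0.66) and MAML3 (0.40), while the scarce MAML2 fell (-1.0). Of 9 tested corepressor genes, 3 rose and 4 fell, or 77.8% called, where 62.9% of all genes tested were called. TLE1, a partner of HES proteins, had a log2 fold change of 1.05 and SPEN, a partner of RBPJ, 0.98, with edgeR adjusted p of 1.4e-05 and 3.6e-05. NCOR1 (-0.45) and TLE3 (-0.53) were among those that fell, but limma on log2(TPM + 1) called neither (-0.12 and -0.13, adjusted p 0.422 and 0.301), and library totals ended the call of NCOR1 (-0.2, adjusted p = 0.086) and of MAML2 (-0.75, adjusted p = 0.107). RBPJ was called lower with library totals (-0.57, adjusted p = 0.00112) and on log2(TPM + 1) (-1.09, adjusted p = 1.16e-04). Of 8 tested inhibitors and turnover genes 6 rose, where 32.4% of all genes tested were called higher. Among the 6 were DTX4 (1.58, edgeR adjusted p = 1.5e-05) and NUMBL (0.72, edgeR adjusted p = 2.2e-05), NUMB (0.65), and FBXW7 (0.39), which marks the cut receptor for destruction. NRARP, a direct Notch target that limits the signal, did not pass (log2 fold change 0.10, edgeR adjusted p = 0.275).

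Other listed targets also went both ways. Of the 7 tested outside the HES and HEY genes, 3 rose and 2 fell, or 71.4% called, where 62.9% of all genes tested were called. HES7, known for the segmentation clock, had 69, 55 and 66 counts in the PRL libraries and 14, 3 and 4 counts in the controls (log2 fold change 2.94, SE 0.41, edgeR adjusted p = 1.3e-04). HES6, which opposes HES1 in neural cells, fell (-0.57, edgeR adjusted p = 7.9e-04), a call lost on log2(TPM + 1) (limma, -0.12, adjusted p = 0.346). CDKN1A, the cell cycle inhibitor gene, rose (log2 fold change 1.76, edgeR adjusted p = 4.6e-08), and CCND1, the cyclin D1 gene, fell to 83.2 ± 5.10 CPM in the PRL group, against 219 ± 36.8 CPM in controls (-1.40, edgeR adjusted p = 5.5e-06). BCL2, an inhibitor of cell death, had 4, 3 and 5 counts in the PRL libraries and 43, 28 and 47 counts in the controls (-3.47, SE 0.37, edgeR adjusted p = 2.4e-05). CDKN1A, CCND1 and BCL2 answer to many signals besides Notch. MYC (0.55, edgeR adjusted p = 0.0173) and GATA3 (0.23, edgeR adjusted p = 0.0311) were the other genes called higher.

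**Figure D4:**
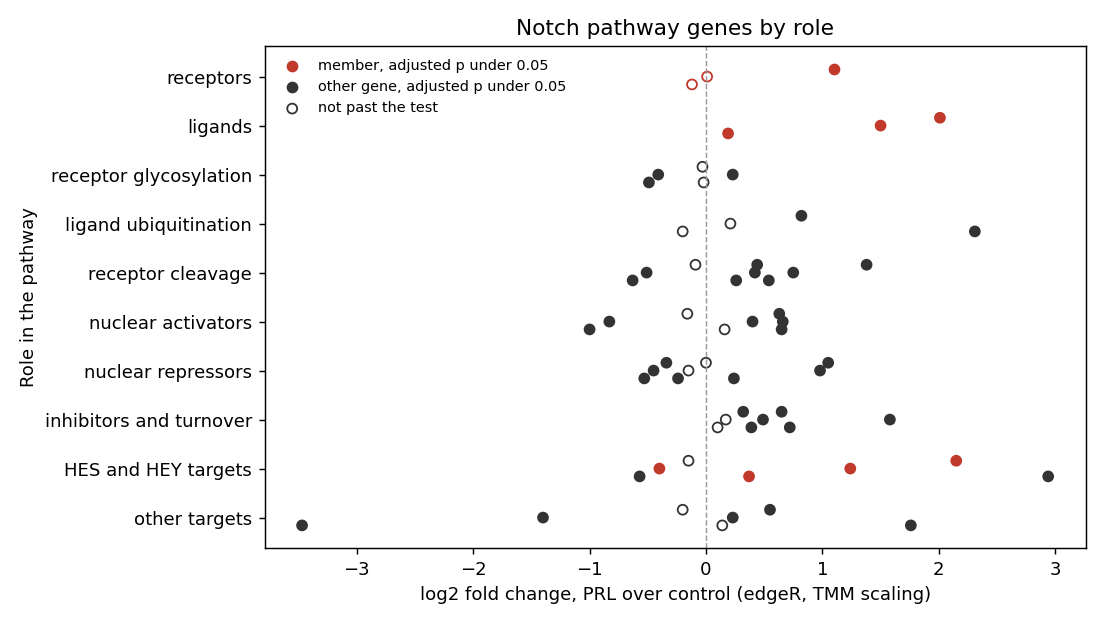
Each point is 1 tested gene of the 70 listed, placed by its log2 fold change (PRL over control) within its role. Filled points passed the test open points did not, and red marks the 10 members. The members reach from -0.40 for HES4 to 2.15 for HEY2, and RBPJ lies among the nuclear activators at -0.83.

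The genes most like the most abundant receptor, ligand and target over the 6 libraries were found by the Pearson correlation of log2 CPM, as a description. They were ZNF418, RAB2B and PPP1R3B for NOTCH3 (r from 0.9828 to 0.9901), none of which passed the test. For JAG2 they were ZMIZ1, SENP2 and ZNF75D (r from 0.9918 to 0.9928), and for HES4 PRSS53, GABARAP and ACP6 (r from 0.9964 to 0.9993).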

How the data were processed

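Total RNA of 6 T47D libraries was sequenced after Trizol extraction, per the labels. HISAT2 2.1.0, Bowtie2 2.3.4.3 and GRCh38.p13 are named, without roles, in the submitters' processing notes. The counting tool, its annotation and strand setting were not given in the sources used here. The authors deposited estimated counts, FPKM and TPM for each gene and library, per the file headers. Of the estimated counts 44.1% to 45.9% per library were not whole, and they were rounded for testing. The authors' 6 columns of group means were not used.

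Libraries were grouped by title. Genes were tested in R 4.3.3 with edgeR 4.0.16 (robust quasi-likelihood fit, group only) after its filter on low counts and TMM scaling, with Benjamini-Hochberg adjustment over 14076 genes and a threshold of 0.05. SE is the absolute log2 fold change over the root of F. A count of 0 allows up to 3 counts, or 0.165 to 0.203 CPM, for counting error only. Shares and ratios were taken from TPM within libraries and tested by exact permutation (SciPy 1.17.1). The test was tried on simulated counts first. Alternatives were other scalings and filters, DESeq2 1.42.0, limma 3.58.1, the replicate number as a block, and each library left out.

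Members and gene lists were chosen with earlier results of these data known. Text names the 10 members, PRL, the 2 listed genes per role with the smallest adjusted p, other listed genes past the threshold, and the 3 genes most like the most abundant member of each kind. NOTCH4, DLL3, DLL4, NRARP and the NOTCH2NL genes were added after their values were seen. HEYL was not analysed here, and some results that this rule names are not reported here. Positions are from GENCODE 29 on GRCh38, and RefSeq start windows (GRCh38.p14) matched 8 of the 10 members.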

Additional observations from a re-analysis of the deposited data

How the results depend on the processing

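NOTCH1, JAG1, DLL1, HEY1 and HEY2 kept their rise in every fit that tested them. JAG1 was not tested with a CPM of at least 1 in 3 libraries, nor JAG1 and HEY1 on FPKM or TPM, being under those filters. With a pseudocount of 1, DLL1 was at 1.04 on log2 FPKM and 1.38 on log2 TPM, and at 2.32 with a pseudocount of 0.1. Of the 10 genes 5 to 8 were called higher across the alternatives. The 8 came with library totals, where 6431 of all 14076 genes tested were called higher, against 4554 of 14076 in the main fit. On log2(TPM + 1), where 6 of the 8 members tested were called higher, 7113 of 12494 genes were. HES4, the 1 gene called lower, lost its call with library totals in edgeR and in limma on FPKM or TPM, which left 0 called lower there (0 at an unadjusted p under 0.05 too), against 1 in DESeq2. It reversed to 0.0066 and 0.0067 on TPM with pseudocounts of 1 and 0.1. NOTCH2 reversed to 0.13 with library totals, 0.12 on FPKM, and 0.3 and 0.33 on TPM with pseudocounts of 1 and 0.1, passing in none. NOTCH3 reversed to -0.0075 with DESeq2's size factors, to -0.0089 in DESeq2 and to -0.005 without a filter, and ranged from -0.03 to 0.1 with each library left out. Of the other pathway genes 13 were called lower, but 6 with library totals, 7 on FPKM and 2 on TPM with either pseudocount, RBPJ and CCND1. Of all 14076 genes tested, 4300 were called lower in the main fit and 2394 with library totals. On log2(TPM + 1), 1381 of 12494 were. Among the 13, MAML2 and BCL2 were under the filters of FPKM and TPM and were not tested there. With library totals BCL2 stayed lower (edgeR log2 fold change -3.21, adjusted p = 4.08e-05) and MAML2 lost its call. The median of all genes moved to 0.26 with library totals, 0.2 on FPKM and 0.39 on TPM. The cause was not tested. Same-numbered libraries of the 2 groups did not deviate together (r = -0.105, 0.043 and -0.057). The PRL libraries differed little among themselves, so this cannot decide whether the numbers pair the libraries. With the replicate block 6 members were called higher and 1 lower, JAG2 losing its call, and 24 and 13 of the other pathway genes. In that fit 4423 of all 14076 genes tested were called higher and 4108 lower. Depth limits JAG1 most, with 4 to 6 counts per control library.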
